A study of Mus musculus with 4 samples.

Results

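The RNA fragments described here begin at the same base, position 22 of a segment of 95 nt in the noncoding control region of the mouse mitochondrial genome. They were read from MLE12 cells, a line of mouse lung epithelium. Members were chosen by their 5' end alone: every listed fragment that starts exactly at position 22, the most used 5' end in all 4 libraries. There were 43 of them among 1083 distinct fragments, with 3145 of 12591 reads. As the start was selected on read counts, its high share of reads is a description and not a finding.

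Cells were given 10% cigarette smoke extract (CSE) for 10 h (2 libraries, CSE 3 and CSE 4) or left untreated (2 libraries, untreated 1 and untreated 2). All cells were at passage 3 and grew in the same serum-containing medium with insulin, hydrocortisone and estradiol. The labels call both libraries of a group biological replicates. MLE12 comes from a lung tumour of a mouse that carried simian virus large T antigen under the surfactant protein C promoter, and all libraries come from this line alone. The tables list reads of the mitochondrial segment only, so the cell type could not be checked against its marker genes.

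The control region is the main noncoding stretch of animal mitochondrial DNA. Transcription of both strands starts within it. Transcripts from the light-strand promoter can be extended as long precursor RNAs or can stop nearby, where they serve as primers of DNA synthesis or accumulate as short RNAs. In such a set of nested fragments, one shared 5' end and many 3' ends, the 5' end marks where the RNA starts or was cut. The ladder of 3' ends shows where it stopped, was cut or was trimmed. Whether position 22 is a start of transcription was not tested.

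The sequences show how the members nest. The tables give DNA letters, printed here 5' to 3'. The table names place the segment in the mouse mitochondrial genome but not the direction in which positions are counted. Position 22 is base 16137 or base 16189 of chromosome MT, and the longest member covers chrMT:16137-16206 if counted along the genome or chrMT:16120-16189 if counted against it. No gene of GENCODE M21 is annotated there (0 of 37 mitochondrial genes). In the first line the capitals mark positions 22 to 91, the longest member. In the other lines they mark the last 4 bases of a member, where its 3' end lies. For 22-91 they mark the limit of the listed length, and the RNA may be longer. The members shown are the shortest and the longest listed and, between them, the 3 with the highest mean share of the set over the 4 libraries.
Segment, positions 1 to 95: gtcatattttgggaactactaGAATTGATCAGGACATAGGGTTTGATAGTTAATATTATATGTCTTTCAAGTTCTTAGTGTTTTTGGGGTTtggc
Fragment 22-49, 28 nt: gaattgatcaggacatagggtttgATAG
Fragment 22-75, 54 nt: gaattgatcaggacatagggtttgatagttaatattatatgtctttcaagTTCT
Fragment 22-81, 60 nt: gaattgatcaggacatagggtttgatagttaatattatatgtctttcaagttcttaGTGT
Fragment 22-87, 66 nt: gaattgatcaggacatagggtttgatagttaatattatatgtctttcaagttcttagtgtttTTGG
Fragment 22-91, 70 nt: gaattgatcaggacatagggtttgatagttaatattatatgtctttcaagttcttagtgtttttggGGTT

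All members share their first 28 bases and begin with G. Of the bases of fragment 22-91, 68.6% are A or T, with 31 T and 5 C. Fragment 22-49 has 60.7% A or T. Listed reads are 28 to 70 nt long, so the ladder is seen from 3' end 49 to 3' end 90. The last step, 3' end 91 at 70 nt, holds every read with no 3' end seen within the listed length, and some of these RNAs may be longer.

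Position 22 was selected on read counts, so its step over the bases beside it is a description and not a finding. Position 22 held 1187 reads in CSE 3, 1371 in CSE 4, 254 in untreated 1 and 333 in untreated 2. Just outside the rule, position 21 held 24 and 62 reads in CSE 3 and 4, against 14 and 13 reads in untreated 1 and 2. Position 23 held 124 and 117 reads in the CSE libraries and 29 and 37 reads in the untreated libraries. Reads at 22 thus numbered 8.02 and 7.66 times those at 21 and 23 together in CSE 3 and 4, and 5.91 and 6.66 times in untreated 1 and 2. These ratios were not tested between the groups.

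As a share of all listed reads, the 5' end took 25.1% in both CSE libraries (95% Wilson intervals 23.9 to 26.4 and 24.0 to 26.3). It took 25.8% (23.2 to 28.6) in untreated 1 and 23.3% (21.2 to 25.6) in untreated 2. The group values overlap, and the exact permutation test of the library values (two-sided) gave p = 1.00. Among reads that start at 21 to 38 alone, position 22 took 47.3% and 46.0% in CSE 3 and 4, against 42.5% and 39.5% in untreated 1 and 2. These groups do not overlap (exact permutation p = 0.333, the smallest that 2 against 2 libraries allow). Reads that start at 23 to 38 made up 27.5% and 28.3% of the CSE libraries, against 33.4% and 34.8% of the untreated libraries.

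Nearly every step of the ladder was filled. CSE 3 listed 42 of the 43 possible members, CSE 4 listed 43, untreated 1 listed 40 and untreated 2 listed 36. In draws of 254 reads, the smallest set, the expected numbers were 39.8 and 40.7 in CSE 3 and 4, against 40 and 35.2 in untreated 1 and 2. At equal read number, untreated 2 thus had the fewest members, and the other libraries were close to each other.

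Reads were unevenly spread along the ladder. The zones used here were drawn after the profiles were seen and carry no test. At the short end, 3' ends 49 to 57, in the stretch GTTAATATT, held 783 reads, a mean of 2.48% of the set's reads per end. In 3' ends 58 to 65 (ATATGTCT) the mean was 0.793% per end, the lowest of the zones. It was 1.49% per end in 3' ends 66 to 73 and 3.17% in 3' ends 74 to 81.

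The long end of the ladder holds a run of T, positions 81 to 85, followed by a run of G, positions 86 to 89. 3' ends 82 to 86, within the T run and at the first G, held 136 reads, a mean of 1.13% per end. 3' ends 87 to 90, at the later G bases and the T after them, held 426 reads, a mean of 3.50% per end. Fragment 22-85, at the last T of the run, had 3 and 4 reads in CSE 3 and 4, against 2 and 0 reads in untreated 1 and 2. Fragment 22-87, which ends at the second G, had 59 and 51 reads in CSE 3 and 4, against 10 and 20 reads in untreated 1 and 2.

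Over 3' ends 49 to 90, reads that end in G took a larger share than G takes of the 42 positions, 21.4%. They made up 28.9% and 24.2% of the reads in CSE 3 and 4, against 26.8% and 22.1% in untreated 1 and 2. The excess was small in untreated 2 and was not tested. G ends were uneven: 22-87, 22-88, 22-89 and 22-49 held 140, 116, 96 and 118 reads over the 4 libraries. Fragments 22-62 and 22-86 held 15 and 18. Reads that end in A fell short of the 19.0% of positions that are A, at 14.7% and 18.5% in CSE 3 and 4, against 11.3% and 13.7% in untreated 1 and 2. Reads that end in T took 48.8% and 51.3% in the CSE libraries and 56.8% and 53.8% in the untreated libraries, with T at 52.4% of positions.

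The member with the most reads, 22-91, also had the largest spread between replicates of all members in both groups. It held 241 and 154 reads in CSE 3 and 4, which are 20.3% (Wilson interval 18.1 to 22.7) and 11.2% (9.67 to 13.0) of the reads in the set. It held 41 and 34 reads in untreated 1 and 2, which are 16.1% (12.1 to 21.2) and 10.2% (7.40 to 13.9). In each group 1 library lay well above the other, and the groups, with means of 15.8% ± 6.41 in CSE and 13.2% ± 4.19 in untreated cells (SD, n = 2 each), overlap.

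Next in mean share came 22-75, at 3.12% and 4.60% of the set's reads in CSE 3 and 4, against 5.51% and 6.31% in untreated 1 and 2. Fragment 22-87 had 4.97% and 3.72% in the CSE libraries and 3.94% and 6.01% in the untreated libraries. Fragment 22-81 had 4.30% and 3.36% in the CSE libraries and 4.72% and 5.41% in the untreated libraries. Of these 3, 22-75 and 22-81 do not overlap between the groups, and 22-87 does. Such separation was common: as a share of listed reads, 18.9% of all fragments tested lay lower in CSE without overlap, and 26.2% higher. Neither 22-75 nor 22-81 was called (adjusted p = 0.730 and 0.870 in edgeR). Fragment 22-50 had 4.80% and 5.25% in CSE 3 and 4, against 5.12% and 2.40% in untreated 1 and 2. The others among the 10 members with the highest mean share were 22-74, 22-88, 22-89, 22-49 and 22-51, with means over the 4 libraries of 4.05%, 4.03%, 3.22%, 2.85% and 2.80%.

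The CSE ladders were the closest pair, and the untreated ladders were about as far apart as the most distant pair of different treatment. Between CSE 3 and 4, 18.9% of the reads would have to move to another 3' end to make the ladders equal. Between untreated 1 and 2 it was 26.8%. The 4 pairs of a CSE and an untreated library ranged from 19.8% to 26.9%. These distances were not set to an equal number of reads, and the untreated sets are the smallest. They therefore cannot show whether treatment adds to the distance. A chi-square test of the read counts, which covers counting error only, gave p = 9.505e-11 between the CSE ladders and p = 0.0116 between the untreated ladders. Set against the ladder of untreated 1, the chi-square p was 0.213 for CSE 3 and 0.0895 for CSE 4. Set against that of untreated 2, the chi-square p was 2.391e-07 for CSE 3 and 2.345e-06 for CSE 4. The pairs differ in read number. Sparse 3' ends were pooled, which left 42 classes for the CSE pair and 18 for CSE 3 with untreated 1. These p values therefore cannot rank the pairs by distance. Each library was kept as a sample of its own.

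The comparison of CSE with untreated cells asked whether the ladder shifts with smoke. More of the set's reads ended in the first zone in both CSE libraries than in either untreated one. Reads of 28 to 36 nt, the first zone, took 23.2% and 29.1% of the set in CSE 3 and 4, against 17.7% and 19.2% in untreated 1 and 2. 3' ends 74 to 81 took 20.6% and 21.6% in CSE 3 and 4, against 27.95% and 31.2% in untreated 1 and 2. 3' ends 82 to 86 took 4.13% and 3.14% in the CSE libraries and 9.06% and 6.31% in the untreated libraries. The groups do not overlap in these 3 zones, nor in 3' ends 66 to 73, which took 12.0% and 13.9% in CSE 3 and 4, against 10.6% and 11.1% in untreated 1 and 2. They overlap in the other 3 of the 7 zones, 3' ends 58 to 65, 87 to 90 and 91. As the zones were drawn after the profiles were seen, these values are a description and not a test. The smallest exact permutation p that 2 against 2 libraries allow is 0.333.

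Long reads took a smaller share of the set in both CSE libraries than in either untreated one. Reads over 50 nt made up 62.9% (Wilson interval 60.1 to 65.6) and 51.7% (49.1 to 54.4) of the set in CSE 3 and 4. In untreated 1 and 2 they made up 69.3% (63.4 to 74.6) and 66.1% (60.8 to 70.9). The means of 57.3% ± 7.93 and 67.7% ± 2.28 (n = 2 each) differ by -10.4 percentage points, without overlap (exact permutation p = 0.333). CSE 4 carries much of this, since the difference is -4.75 points without it and -16.0 without CSE 3. Median lengths of 56 and 51 nt in CSE 3 and 4, against 57 and 55 nt in untreated 1 and 2, overlap.

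The groups were also apart in the reads that pass 3' end 73, and overlapped further along the ladder. Reads extending past 3' end 73 made up 59.7% and 47.9% of the set in CSE 3 and 4, against 65.4% and 64.9% in untreated 1 and 2. Past 3' end 81 the shares were 39.1% and 26.3% in the CSE libraries and 37.4% and 33.6% in the untreated libraries. Past 3' end 86 they were 35.0% and 23.2% in the CSE libraries and 28.3% and 27.3% in the untreated libraries. Both of these later points overlap between the groups. The points are limits of the zones, so these values too are a description.

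Reads of 53 to 54 nt, the members 22-74 and 22-75, made up 6.07% (4.84 to 7.57) and 7.59% (6.30 to 9.11) of the set in CSE 3 and 4. They made up 8.27% (5.47 to 12.3) and 13.8% (10.5 to 17.9) in untreated 1 and 2. The groups do not overlap, but the highest CSE and the lowest untreated value are close (exact permutation p = 0.333). The difference of the means, -4.22 percentage points, was -1.44 without untreated 2. Reads of the same length that start at 23 to 38 made up 10.4% and 10.1% in the CSE libraries and 23.1% and 21.1% in the untreated libraries. Whether the difference is smaller at 22 than at 23 to 38 was not tested. The band was known from earlier results of these reads to be lower in CSE.

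The spread of reads over the ladder did not separate the groups. The effective number of 3' ends, the inverse of the chance that 2 reads of the set share a 3' end, was 16.1 and 26.7 in CSE 3 and 4, against 20.9 and 23.9 in untreated 1 and 2 (exact permutation p = 1.00). Without the reads of 70 nt it was 30.4 and 31.7 in the CSE libraries and 31.5 and 25.4 in the untreated libraries.

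Single members were tested with edgeR's quasi-likelihood test in 1 fit over all 317 fragments with at least 10 reads. 42 of the 43 members entered, all but 22-85. None of the 42 passed at an adjusted p of 0.05 (0 called), where 0.315% of all fragments tested did (1 of 317). An unadjusted p under 0.05 was found for 6 members (14.3%), 4 higher and 2 lower in CSE, beside 26 of all fragments tested (8.20%). DESeq2 called 0 members, with 2 at an unadjusted p under 0.05. As a share of listed reads, the groups did not overlap for 9 members higher in CSE, 21.4% of those tested, beside 26.2% of all fragments tested. They did not overlap for 7 members lower in CSE, 16.7%, beside 18.9% of all fragments. The members' median log2 difference was -0.06, and that of all fragments 0.10. The 2 members with no untreated read, 22-62 and 22-64, passed the filter through the CSE libraries alone, so their place among the higher members is set by that filter. Fragments 22-69 and 22-73 passed it through CSE reads too, with 0 and 1 reads and 1 and 0 reads in untreated 1 and 2. So did 22-49, with 7 and 0 reads there. With 22-64 these are the 4 higher members at an unadjusted p under 0.05. The 14.3% is therefore a description and not an excess over 8.20%.

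The 3 members with the lowest p are named after their values were seen. For 22-64 the p only served to pick it and is not read as a test, as it passed the filter through CSE alone. Fragment 22-49, the shortest listed, held 49 and 62 reads in CSE 3 and 4, against 7 and 0 reads in untreated 1 and 2. The CSE shares of the set, 4.13% and 4.52%, lie above the untreated ones of 2.76% and 0, where a count of 0 allows up to 0.901%. Its log2 difference was 1.85 (SE 0.60), with an adjusted p of 0.0972 in edgeR. The value rests on untreated 2: the log2 difference was 0.61 without it (adjusted p = 0.627, edgeR), while without untreated 1 the untreated side was 1 library at 0 reads, which gives no spread, and the call made there rests on that 0. With TMM factors it was called too (adjusted p = 0.0483, edgeR). Over the other alternatives its adjusted p ran from 0.00504 (Fisher's exact test of pooled reads) to 0.997 (DESeq2). Untreated 2 did list reads of 28 nt with other starts, at 4.02% of them, close to 4.04% and 4.38% in CSE 3 and 4.

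Fragment 22-64 ends at the only C of the zone 58 to 65. It held 15 and 16 reads in CSE 3 and 4, against 0 reads in both untreated libraries. Pooled over a group it took 1.21% of the set's reads in CSE, where 0 of 587 untreated reads allow up to 0.511% (3 counts over the group). As it passed the filter through CSE alone, these values are a description, with no test. Reads of 43 nt with other starts were also fewer in untreated cells, at 3.22% and 3.04% in CSE 3 and 4, against 1.78% and 2.10% in untreated 1 and 2. The part of that length in the result was not tested.

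Fragment 22-82 ends at the second T of the run. It held 11 and 16 reads in CSE 3 and 4, which are 0.927% and 1.17% of the set, and 8 and 11 reads in untreated 1 and 2, which are 3.15% and 3.30%. The log2 difference was -1.56 (SE 0.54), with an adjusted p of 0.132 in edgeR. Replicates were close to each other on both sides, and the library values of the groups are apart. Their Wilson intervals overlap, as in CSE 4 (0.720 to 1.89) and untreated 1 (1.60 to 6.09). DESeq2 did not call the fragment (adjusted p = 0.997). Reads of 61 nt with other starts took 0.424% and 0.465% in CSE 3 and 4, against 0.548% in both untreated libraries.

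The set at position 22 held larger shares of both the shortest and the longest reads than the starts just after it. Starts 22 to 26 can all reach every listed length within the segment. Over 56 nt were 49.96% and 37.9% of the reads at 22 in CSE 3 and 4, against 52.4% and 45.9% in untreated 1 and 2. Of the reads that start at 23 to 26, over 56 nt were 31.2% and 19.5% in the CSE libraries and 29.3% and 26% in the untreated libraries. Reads of 70 nt made up 9.27% and 6.50% of those at 23 to 26 in the CSE libraries and 8.70% and 8.67% in the untreated libraries, below the shares at 22 given above in each library. Of all listed reads of 70 nt, 470 of 577 began at 22. Starts after 26 cannot give 70 nt within the segment, and 22 was selected on read counts, so this share is a description. At the short end, reads of 28 to 36 nt took a larger share at 22, given above, than at 23 to 26 in each library: at 23 to 26 they made up 19.8% and 25.4% in CSE 3 and 4, against 9.78% and 11.3% in untreated 1 and 2. Reads over 50 nt had no common direction. At 23 to 26 they made up 53.4% and 46.9% in CSE 3 and 4, against 81.5% and 62.7% in untreated 1 and 2. This was below the share at 22 in 3 libraries and above it in untreated 1. The length limits were set after the profiles were seen, and these differences carry no test.

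The larger share of short reads in CSE was also seen at the starts just after 22. Among reads that start at 23 to 26, neither those of 28 to 36 nt nor those over 50 nt overlap between the groups. Among starts 23 to 38, reads over 50 nt made up 51.2% and 44.7% in the CSE libraries and 62.9% and 58.4% in the untreated libraries.

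The ladder at 22 was also set against that of the internal fragments that start at 23 to 38, at 3' ends 65 to 90. Each of these starts can reach every one of these 3' ends at a listed length. The window held 1708 reads at 22 and 2797 reads at 23 to 38. edgeR's test with the library as a block called 6 of 26 3' ends (23.1%), 2 higher and 4 lower at 22, and 10 had an unadjusted p under 0.05. For the same 3' end, reads from 22 are longer than reads from 23 to 38, so 3' end and length cannot be told apart in this comparison.

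The 4 lower ends lie close together, at 77 and 79 to 81, just before and at the start of the T run. 3' end 81 took 8.16% and 6.53% of the window at 22 in CSE 3 and 4, against 7.69% and 8.07% in untreated 1 and 2. At starts 23 to 38 it took 13.7% and 9.00% in the CSE libraries and 13.9% and 7.38% in the untreated libraries. It was lower at 22 in 3 of 4 libraries (log2 difference -0.55, SE 0.14, adjusted p = 0.00256 in edgeR). Against starts 23 to 30 alone it was not called (log2 difference -0.36, adjusted p = 0.0861 in edgeR). 3' end 79 took 4.85% ± 0.458 at 22 and 7.81% ± 0.597 at 23 to 38 (SD, n = 4) and was lower in 4 of 4 libraries. 3' end 80, at 4.56% ± 1.43 against 6.83% ± 0.897, was also lower in 4 of 4 libraries, and 3' end 77, at 3.97% ± 1.07 against 5.86% ± 1.72, in 3 of 4. Their adjusted p in edgeR was 0.00955, 0.0109 and 0.00814.

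The ends called higher at 22 were 66 and 90. 3' end 66 took 2.88% and 5.97% of the window at 22 in CSE 3 and 4, against 5.13% and 4.93% in untreated 1 and 2. At starts 23 to 38 it took 1.95% and 2.51% in the CSE libraries and 0.730% and 3.31% in the untreated libraries. It was higher at 22 in 4 of 4 libraries (log2 difference 1.04, SE 0.34, adjusted p = 0.0155 in edgeR). It was not called against starts 23 to 30 alone (adjusted p = 0.0589) or without untreated 2 (adjusted p = 0.101, edgeR). 3' end 90, at 69 nt for a read from 22, took 3.84% and 5.68% at 22 in CSE 3 and 4, against 2.56% and 2.69% in untreated 1 and 2. At 23 to 38 it took 1.23% and 0.952% in the CSE libraries and 3.65% and 1.27% in the untreated libraries (log2 difference 1.59, SE 0.41, adjusted p = 0.00256 in edgeR), higher in 3 of 4 libraries. DESeq2 did not call it (log2 difference 1.33, adjusted p = 0.0760).

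Both CSE libraries are needed for these calls: without CSE 3 or without CSE 4 no 3' end was called (0, with 4 at an unadjusted p under 0.05 each time in edgeR), and each of the 6 kept its direction. Whether treatment changed the contrast of the ladders was tested as an interaction in edgeR. It was called for 0 of 26 3' ends, with 2 at an unadjusted p under 0.05 and a lowest adjusted p of 0.131. The 2 are 3' end 72 and 3' end 90, the latter called higher at 22 above. For 3' end 90 the log2 interaction was 1.91 (unadjusted p = 0.0345, adjusted p = 0.449 in edgeR). Its share was lower at 22 than at 23 to 38 in untreated 1.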

How the data were processed

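Per the labels' protocols, RNA of 15 to 100 nt was taken from a gel, a 3' adaptor with 4 random bases was ligated, and libraries were read from both ends. The deposited values are raw read counts per distinct fragment, aligned with BLASTN to the segment per the table names. Its settings, read trimming and any removal of duplicates: not given in the sources used here. Shares refer to the reads listed, 4724 and 5456 for CSE 3 and 4 and 984 and 1427 for untreated 1 and 2, since no library totals were used. Wilson intervals and limits cover counting error only. Tables number 2 joined copies of the segment, and the 1 to 5 reads per library in the second copy were moved to the first. Groups come from the table names, and libraries keep the table numbers, which do not match the labelled replicates.

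The members, lists and measures were chosen with earlier results of these data known. Named are the 10 members with the highest mean share of the set, members that passed, the shortest and the longest, and 3' ends called against starts 23 to 38 (at most 5 in each direction). Counts were tested with edgeR 4.0.16 in R 4.3.3 (glmQLFit, glmQLFTest, reads listed as library size, at least 10 reads, Benjamini-Hochberg adjustment over a whole fit), with SEs from the F statistic. Library values were set against each other by an exact permutation test, two-sided, in SciPy 1.17.1. Alternatives were TMM factors, DESeq2 1.42.0, Fisher's exact test of pooled reads, other filters and leaving out libraries. A call by Fisher's exact test also required that the library shares of the groups do not overlap. The edgeR steps were tested on simulated data. The interaction test, the zones and the starts 23 to 26 were added after values were seen.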

Additional observations from a re-analysis of the deposited data

How the results depend on the processing

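At position 22, the lower CSE shares of reads over 50 nt and of 53 to 54 nt kept their direction under each setting run for them. When single libraries were left out, reads over 50 nt differed by -16.0 to -4.75 percentage points and reads of 53 to 54 nt by -6.99 to -1.44. The median length did not keep its direction: its difference of -2.5 nt was -5 to 0 in these runs. No paired analysis was possible because the tables carry numbers 3 and 4 for CSE and 1 and 2 for untreated cells, which the groups do not share. The count of members called between groups was 0, and 1 with TMM factors, 2 by Fisher's exact test of pooled libraries (22-49 and 22-82) and 0 to 1 without single libraries, the 1 being 22-49 against the lone untreated library at 0 reads. As 22-49 passed the filter through CSE reads, its calls are a description. The count of 3' ends called against starts 23 to 38 was 6, and 0 to 8 without single libraries. Differences near 0 changed sign. The share of listed reads at 22 differed by 0.553 points, by -0.0526 without reads of 70 nt and by -0.685 to 1.79 without single libraries. The effective number of 3' ends differed by -0.967, by 2.56 without reads of 70 nt and by -6.27 to 4.34 without single libraries. Reads of 70 nt differed by 2.59 points, and by -1.94 to 7.13 without single libraries.

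Of the members, the log2 differences of 22-87 and 22-89 were -0.18 and -0.14, and 0.089 and 0.12 with TMM factors and 0.053 and 0.072 with DESeq2. Without single libraries they ran from -0.39 to 0.10 for 22-87, -0.51 to 0.16 for 22-89, -0.20 to 0.73 for 22-91, -0.063 to 1.17 for 22-50, -1.23 to 0.069 for 22-74 and -0.69 to 0.10 for 22-88. The cause of these changes was not tested. The untreated sets of 254 and 333 reads limit what can be seen: a count of 0 there allows up to 1.18% and 0.901%.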
